A study of Oryza sativa Japonica Group with 10 samples.

Results

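The phytocassane gene cluster of rice is a stretch of chromosome 2 in which genes for diterpene cyclases and cytochrome P450 enzymes lie side by side. The rule for its 8 members used locus IDs and no measured value, though earlier results of these data were known. The 8 members came from the 55689 gene IDs that the files list. They are OsCPS2 (LOC_Os02g36210), OsKSL7 (LOC_Os02g36140), OsKSL5 (LOC_Os02g36220), CYP71Z7 (LOC_Os02g36190), CYP76M7 (LOC_Os02g36110), CYP76M8 (LOC_Os02g36070), CYP76M6 (LOC_Os02g36280) and CYP76M5 (LOC_Os02g36030). The authors sequenced shoot RNA of four-leaf rice plants, and 10 libraries of 4 groups were used here. WT Zhonghua 11 (ZH11), a japonica variety, gave 3 libraries under normal conditions and 2 under drought stress. OsJAZ1-OE plants, which are ZH11 plants overexpressing the jasmonate repressor gene OsJAZ1, also gave 3 libraries under normal conditions and 2 under drought stress. The labels put the soil water content of the stressed plants at 10 to 15%. The OsJAZ1-OE libraries all come from 1 transgenic line, OE-1, whose transgene has the OsLEA3-1 promoter, itself drought-inducible, so an effect of the transgene and one of that line cannot be told apart.

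Phytocassanes are labdane-related diterpenoid phytoalexins, antimicrobial compounds that rice makes when fungi attack and that its roots also release. Geranylgeranyl diphosphate from the plastid is first folded into ent-copalyl diphosphate, a kaurene synthase-like (KSL) cyclase turns this into a hydrocarbon such as ent-cassadiene, and P450 enzymes then add oxygen to it. The same ent-copalyl diphosphate is also the entry to gibberellins, which rice makes with another set of genes. Jasmonate and fungal elicitors are known to switch on phytoalexin genes in rice leaves and cultured cells, and JAZ proteins hold back jasmonate responses.

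In the files' coordinates, for which the sources used here name no genome build, the members lay between positions 21662608 and 21906350 of chromosome 2, a span of 243.7 kb with 24 annotated MSU loci. Their order along the chromosome was CYP76M5, CYP76M8, CYP76M7, OsKSL7, CYP71Z7, OsCPS2, OsKSL5 and CYP76M6. OsCPS2 ran from 21841059 to 21847837, OsKSL7 from 21765009 to 21773418, and CYP76M7 from 21740304 to 21742030. The names of 9 of the 10 diterpenoid genes in this stretch, the neighbours CYP71Z6 and OsKSL6 included, were found on chromosome 2 and in the same order in the RefSeq gene table, while the name CYP76M7 stood there beside a gene of chromosome 6. Fragments of the related CYP76M genes, and those of OsKSL5 and OsKSL6, may be split between them by the counting, which the sources used here do not describe.

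Each library held from 32396200 to 34027900 estimated fragments as deposited, and from 28610700 to 37796200 once the constant step between a library's values was divided out. OsJAZ1 was at 110 to 117 FPKM in ZH11 normal and at 126 to 147 FPKM in ZH11 drought. In OsJAZ1-OE it was at 1200 to 1281 FPKM under normal conditions and at 1177 to 1388 FPKM under drought. Its log2 fold change under drought was 0.26 in ZH11 (adjusted p = 0.0088, edgeR) and −0.06 in OsJAZ1-OE (adjusted p = 0.51, edgeR). Among markers of the organ, 4 shoot genes summed to 6556 to 7752 FPKM per normal library and to 4361 to 4674 FPKM per drought library. Of 6 root genes, RCc3 and the transporter genes NRT2.1 and Lsi2 reached at most 0.654 FPKM, and all 3 were at 0 in the drought libraries. NRT2.1 and Lsi2 were also at 0 in every ZH11 normal library. As group means, Lsi1 was at 4.75 to 10.8 FPKM, IRT1 at 2.37 to 3.77 FPKM and Nramp5 at 0.305 to 6.42 FPKM. The sum of the 6 in ZH11 was 12.8 to 16.6 FPKM under normal conditions and 12.9 to 14.1 FPKM under drought. For OsJAZ1-OE the same sum was 14.4 to 15.3 and 10.5 to 12.4 FPKM. The study calls its replicates biological, but the labels do not say how plants were sampled or pooled, so p-values measure the spread between these libraries. Intervals for fragments below cover counting error only, since PCR copies were not told apart by molecular identifiers.

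The 8 members were expressed at low levels in shoots, and OsCPS2 carried most of their sum. The neighbour CYP71Z6, not among the 8, was higher, with a mean of 18.4 FPKM in ZH11 normal against 12.8 for OsCPS2. FPKM scales a gene's fragments by its transcript length in kilobases and by the library's mapped fragments, so levels of different genes can be set side by side on it. Summed over the 8 members, the level was 21.4 ± 1.05 FPKM (SD, n = 3) in ZH11 normal and 9.80 ± 0.125 (SD, n = 2) in ZH11 drought. In OsJAZ1-OE it was 23.1 ± 4.49 FPKM (SD, n = 3) under normal conditions and 12.2 ± 2.18 (SD, n = 2) under drought. OsCPS2, whose enzyme makes ent-copalyl diphosphate for defence rather than for gibberellin, held 51.6 to 66.3% of that sum in every library. Without it, the other 7 members summed to 8.59 ± 0.449 FPKM in ZH11 normal and 3.84 ± 0.0931 in ZH11 drought.

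In ZH11 under normal conditions the order by mean FPKM was OsCPS2 (12.8), CYP71Z7 (2.24), OsKSL5 (1.95), CYP76M7 (1.51), CYP76M6 (0.978), OsKSL7 (0.961), CYP76M5 (0.483) and CYP76M8 (0.468). OsCPS2 stood above all other members in every library. In this group the libraries of CYP71Z7 and OsKSL5 overlapped, as did those of OsKSL5 and CYP76M7. So did those of CYP76M6 and OsKSL7, and of CYP76M5 and CYP76M8. The order within these pairs rests on the means alone, and no test between genes was run. In OsJAZ1-OE under normal conditions OsCPS2 (12.1) and CYP71Z7 (3.36) led again, and OsKSL5 (1.16) came sixth, behind CYP76M7 (1.81), OsKSL7 (1.75) and CYP76M6 (1.69). The libraries of those 4 genes overlapped from each to the next.

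**Figure D1:**
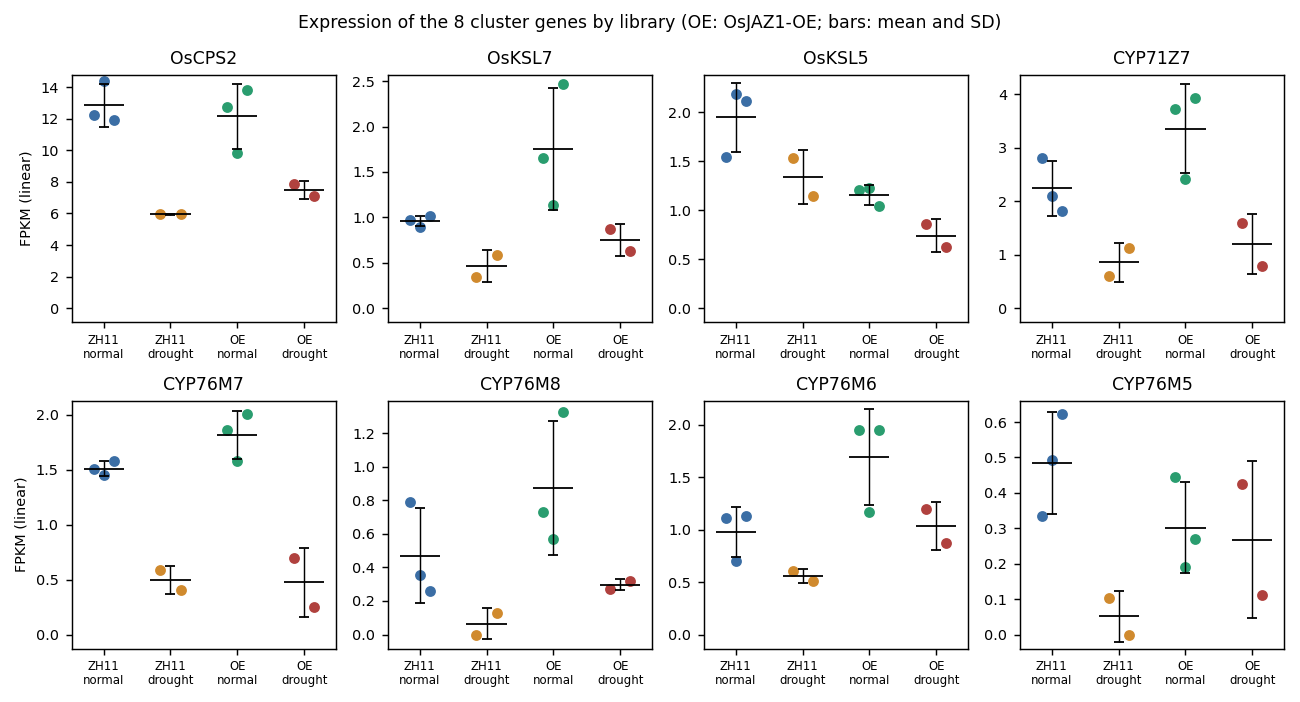
Expression of the 8 cluster genes, 1 panel per gene, in FPKM on a linear axis of its own. Points are libraries, and the horizontal bar and whiskers are the mean and SD of a group (3 libraries under normal conditions, 2 under drought). In ZH11 each drought point lies below each normal point in all 8 panels, and in OsJAZ1-OE CYP76M6 and CYP76M5 overlap.

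Drought stress was the first comparison. The summed level of the members was lower under drought in both genotypes, and no tested member was higher. Of the 8 members, 7 had enough counts for edgeR's filter and CYP76M5 did not. In ZH11, 6 of the 7 fell at an adjusted p under 0.05 (edgeR's quasi-likelihood test, adjusted over all 24850 genes tested), where 22.8% of all genes tested were called lower. In OsJAZ1-OE, 5 of the 7 fell, where 20.0% of all genes were called lower. Where a log2 change of −1 or lower was asked for as well, 5 members passed in ZH11 (9.03% of all genes) and 3 in OsJAZ1-OE (6.62% of all genes). The median log2 fold change of the 7 was −1.13 in ZH11 and −1.17 in OsJAZ1-OE, beside medians within 0.01 of 0 over all genes. In whole shoots, fewer cells of a type and less RNA per cell cannot be told apart.

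Every drought library lay below every normal library for 8 of 8 members in ZH11, a separation that 31.3% of all genes tested showed. In OsJAZ1-OE it held for 6 of 8 members, against 31.6% of all genes. OsCPS2, OsKSL7, CYP71Z7 and CYP76M7 had all 4 drought libraries below all 6 normal ones, as had 18.6% of all genes tested. In the average of both genotypes' responses each of the 7 tested members was called lower by edgeR, against 28.3% of all genes. Of the 4 shoot markers, RBCS (log2 fold change −1.55 in ZH11 and −1.49 in OsJAZ1-OE) and CAB2R (−0.71 and −0.51) fell in both genotypes, PORB fell in ZH11 (−0.39, with −0.15 in OsJAZ1-OE), and psbO had 0.05 in both. Of the 3 root markers with enough counts, Nramp5 fell (−4.25 and −3.53), Lsi1 rose (1.09 and 0.62), and IRT1 fell in ZH11 (−0.74, with 0.17 in OsJAZ1-OE). The part of these markers in the result was not tested.

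OsCPS2, the class II cyclase at the head of the pathway, was at 12.2, 14.4 and 11.9 FPKM in the ZH11 normal libraries and at 5.93 and 5.98 FPKM in the ZH11 drought libraries. In OsJAZ1-OE it was at 12.7, 9.83 and 13.8 FPKM under normal conditions and at 7.88 and 7.10 FPKM under drought. The drought libraries of ZH11 were the lowest of all 10, those of OsJAZ1-OE lay between them and the normal libraries, and the normal libraries of the genotypes overlapped. The log2 fold change was −1.13 in ZH11 (standard error 0.13, adjusted p = 6.9e-05, edgeR), which is 2.19-fold lower. In OsJAZ1-OE it was −0.71 (standard error 0.13, adjusted p = 0.0017, edgeR), which is 1.64-fold lower. The gene was called in both genotypes under each of 19 other fits, filters and left-out libraries. With the fold limit of 1 on the log2 scale it passed in ZH11 and not in OsJAZ1-OE.

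OsKSL7 encodes ent-cassadiene synthase, the cyclase that commits ent-copalyl diphosphate to phytocassanes. It was at 0.972, 0.897 and 1.01 FPKM in ZH11 normal and at 0.341 and 0.590 FPKM in ZH11 drought. The OsJAZ1-OE libraries had 1.66, 1.14 and 2.46 FPKM under normal conditions and 0.876 and 0.626 FPKM under drought. OsJAZ1-OE normal replicate 3 was the highest library, and the groups did not overlap within either genotype. The log2 fold change under drought was −1.02 in ZH11 (standard error 0.35, adjusted p = 0.035, edgeR) and −1.17 in OsJAZ1-OE (standard error 0.33, adjusted p = 0.016, edgeR). In ZH11 the call ended without ZH11 normal replicate 1 (adjusted p = 0.070, edgeR), ZH11 normal replicate 3 (0.078) or ZH11 drought replicate 1 (−0.66, 0.23), and with limma-trend on log2(FPKM + 1) (0.10), over alternatives that ran from 0.0098 to 0.23. In OsJAZ1-OE it ended without OsJAZ1-OE normal replicate 3 (adjusted p = 0.051, edgeR) or OsJAZ1-OE drought replicate 2 (0.13), over alternatives from 0.0019 to 0.13.

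OsKSL5 is a related cyclase whose japonica form makes an ent-pimaradiene, a product outside the phytocassane route. It was at 1.54, 2.18 and 2.12 FPKM in ZH11 normal and at 1.53 and 1.15 FPKM in ZH11 drought, so that the highest drought library came close to the lowest normal one. For OsJAZ1-OE the values were 1.21, 1.22 and 1.04 FPKM under normal conditions and 0.863 and 0.620 FPKM under drought. Its log2 fold changes were the smallest of the tested members in size, at −0.53 in ZH11 (standard error 0.19, adjusted p = 0.047, edgeR) and −0.61 in OsJAZ1-OE (standard error 0.21, adjusted p = 0.036, edgeR). These calls lie near the threshold. In ZH11 the call ended without ZH11 normal replicate 2 (adjusted p = 0.12, edgeR) or 3 (0.14), without ZH11 drought replicate 2 (0.27), or when OsJAZ1-OE normal replicate 1 (0.059), 2 (0.069) or 3 (0.055) was left out. It also ended with the groups compared fitted alone (adjusted p = 0.055, edgeR), with step-divided counts (0.051) and with limma-trend on log2(FPKM + 0.1) (0.096) or log2(FPKM + 1) (0.076), over alternatives from 0.020 to 0.27. In OsJAZ1-OE it ended without ZH11 normal replicate 3 (adjusted p = 0.051, edgeR), without OsJAZ1-OE normal replicate 1 (0.084) or 2 (0.095), and without OsJAZ1-OE drought replicate 2 (−0.38, 0.27), as well as with limma-trend on log2(FPKM + 0.1) (0.062) or log2(FPKM + 1) (0.095), over alternatives from 0.025 to 0.27.

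The P450 genes add oxygen to what the cyclases make. CYP71Z7, whose enzyme hydroxylates ent-cassadiene on ring A, was at 2.81, 2.104 and 1.81 FPKM in ZH11 normal and at 0.605 and 1.12 FPKM in ZH11 drought. Its OsJAZ1-OE values were 3.73, 2.42 and 3.94 FPKM under normal conditions and 1.59 and 0.799 FPKM under drought. No drought library of either genotype reached the lowest normal library. The log2 fold change was −1.38 in ZH11 (standard error 0.37, adjusted p = 0.012, edgeR) and −1.46 in OsJAZ1-OE (standard error 0.36, adjusted p = 0.0077, edgeR). The call ended in ZH11 without ZH11 drought replicate 1 (−0.99, adjusted p = 0.098, edgeR, over alternatives from 8.7e-04) and in OsJAZ1-OE without OsJAZ1-OE drought replicate 2 (−1.04, adjusted p = 0.076, edgeR, over alternatives from 2.8e-04).

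CYP76M7 encodes the enzyme that hydroxylates ent-cassadiene on ring C. It was at 1.503, 1.45 and 1.58 FPKM in ZH11 normal and at 0.588 and 0.409 FPKM in ZH11 drought. In OsJAZ1-OE it was at 1.86, 1.58 and 2.01 FPKM under normal conditions and at 0.696 and 0.252 FPKM under drought. The 6 normal libraries lay close together, and the highest drought library lay below the lowest of them. The log2 fold change was −1.64 in ZH11 (standard error 0.36, adjusted p = 0.0035, edgeR), or 3.12-fold lower, and −2.04 in OsJAZ1-OE (standard error 0.36, adjusted p = 0.0013, edgeR), or 4.11-fold lower. The gene was called in both genotypes under the 18 alternatives that tested it. These values rest on 33 to 50 fragments per normal library and 6 to 17 per drought library, counted after the step was divided out.

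CYP76M8 encodes a close relative of CYP76M7 that accepts ent-cassadiene and several other diterpenes. It was at 0.791, 0.353 and 0.261 FPKM in ZH11 normal and at 0 and 0.129 FPKM in ZH11 drought. The OsJAZ1-OE libraries had 0.732, 0.567 and 1.33 FPKM under normal conditions and 0.273 and 0.321 FPKM under drought. The ZH11 drought libraries held 0 and 3 fragments, where a count of 0 allows up to 3, against 26, 10 and 8 in the normal libraries. Summed over libraries, 3 fragments in drought stood against 44 under normal conditions, a ratio of 0.111 after allowing for library totals with an exact 95% interval of 0.0220 to 0.345. In OsJAZ1-OE, 17 fragments stood against 74, a ratio of 0.318 (exact 95% interval 0.176 to 0.544). The fitted log2 fold change was −2.70 in ZH11 (standard error 0.89, adjusted p = 0.030, edgeR) and −1.61 in OsJAZ1-OE (standard error 0.66, adjusted p = 0.076, edgeR), which did not pass. The ZH11 call ended without ZH11 normal replicate 1 (−2.1, adjusted p = 0.098, edgeR) or ZH11 drought replicate 1 (−1.74, adjusted p = 0.16, edgeR), with the groups compared fitted alone (0.057) and with limma-trend on log2(FPKM + 1) (0.11), over alternatives from 0.015 to 0.16. Without ZH11 drought replicate 2, which leaves a single drought library at 0, the fitted value was −6.78, which is no bound. In OsJAZ1-OE the gene passed with the groups compared fitted alone (adjusted p = 0.035, edgeR) and without ZH11 drought replicate 1 (0.0495) or 2 (0.0499).

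CYP76M6, another P450 of the family that acts on rice diterpenes, was at 1.11, 0.699 and 1.13 FPKM in ZH11 normal and at 0.604 and 0.513 FPKM in ZH11 drought. For OsJAZ1-OE the values were 1.95, 1.17 and 1.95 FPKM under normal conditions and 1.19 and 0.874 FPKM under drought, where OsJAZ1-OE normal replicate 2 lay just under the higher drought library. The log2 fold changes were −0.83 in ZH11 (standard error 0.35, adjusted p = 0.074, edgeR) and −0.74 in OsJAZ1-OE (standard error 0.31, adjusted p = 0.085, edgeR), neither past the threshold. Their average was −0.79 (standard error 0.23, adjusted p = 0.015, edgeR). The gene passed in ZH11 without ZH11 normal replicate 2 (−1.02, adjusted p = 0.040, edgeR) and in OsJAZ1-OE without OsJAZ1-OE normal replicate 2 (−0.94, adjusted p = 0.035, edgeR).

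CYP76M5, the member at one end of the cluster, was at 0.335, 0.492 and 0.623 FPKM in ZH11 normal and at 0.103 and 0 FPKM in ZH11 drought. Its OsJAZ1-OE values were 0.444, 0.192 and 0.269 FPKM under normal conditions and 0.424 and 0.111 FPKM under drought. The groups were apart in ZH11 and overlapped in OsJAZ1-OE, on no more than 12 fragments in any library. Summed over libraries, 2 fragments in ZH11 drought stood against 28 under normal conditions, a ratio of 0.116 (exact 95% interval 0.0134 to 0.460). In OsJAZ1-OE, 10 fragments stood against 16, a ratio of 0.865 (exact 95% interval 0.351 to 2.03), so that no change was detectable at this depth. In the fit with no filter its log2 fold change was −2.96 in ZH11 (adjusted p = 0.029, edgeR) and −0.22 in OsJAZ1-OE (adjusted p = 0.94, edgeR).

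**Figure D2:**
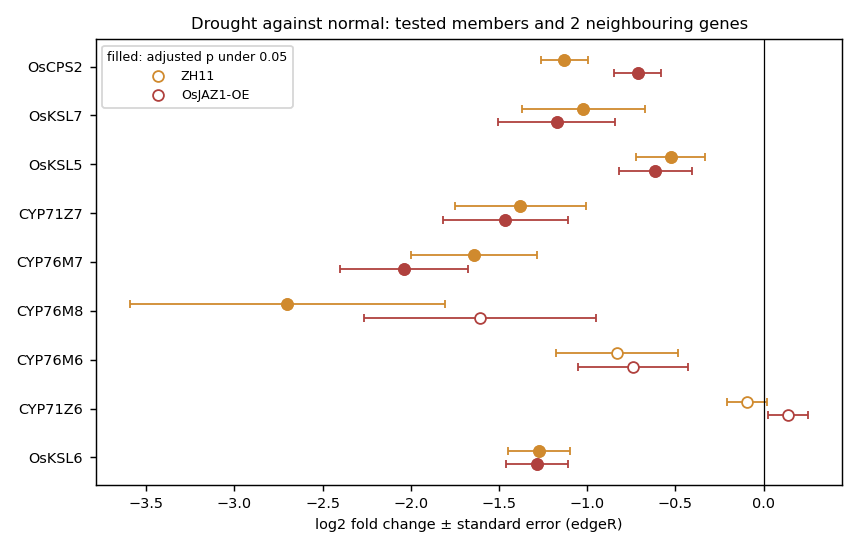
Log2 fold change of drought against normal conditions for the 7 tested members and the neighbouring genes CYP71Z6 and OsKSL6, in ZH11 and in OsJAZ1-OE. Whiskers are standard errors, and filled points have an adjusted p under 0.05 in edgeR. All 14 member points lie left of 0, from −2.70 to −0.53, while CYP71Z6 stays near 0.

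The cyclase genes OsKSL7 and OsKSL5 had 5 transcript rows each, and each of the 6 other members had 1. In OsKSL7 a transcript of 3063 bases held 74.2 to 99.998% of the gene's FPKM in each library. No transcript of OsKSL5 led in that way, and its most abundant form held 33.4 to 71.4% of the gene's FPKM. Shares of transcripts this alike in length come from the authors' assignment of shared fragments, so only the gene sums were tested.

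The members varied together over the libraries, apart from OsKSL5. Over the 10 libraries, which share the drought contrast, Pearson's r of log2 CPM (counts scaled to a common library size) between pairs of the 7 tested members ran from −0.15 to 0.93 over 21 pairs, with a median of 0.78. The highest was that of OsKSL7 with CYP71Z7 (0.93), a cyclase and a P450 of the phytocassane route. OsKSL7 had 0.91 with CYP76M8, 0.89 with CYP76M6 and 0.74 with CYP76M7. OsKSL5 had r of −0.15 with CYP76M6, −0.12 with CYP76M8, −0.03 with OsKSL7, 0.20 with CYP71Z7, 0.45 with OsCPS2 and 0.58 with CYP76M7. With each group's mean taken off, r ran from −0.82 to 0.80 with a median of 0.38. It was 0.80 for OsKSL7 with CYP71Z7 and 0.33 for OsKSL7 with CYP76M7. OsKSL5 had the lowest value, −0.82 with CYP76M8, and −0.23 with OsKSL7, −0.16 with CYP71Z7 and −0.009 with CYP76M6. It had 0.03 with OsCPS2 and 0.64 with CYP76M7. CYP76M7 with CYP76M8 was also negative, at −0.24.

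Replicates of OsJAZ1-OE differed from each other across the cluster. OsJAZ1-OE normal replicate 2 was the lowest of its group for 6 of the 7 tested members, against 33.1% of all genes tested. Its median log2 difference from the other pair was −0.65 over the members and −0.0004 over all genes. OsJAZ1-OE normal replicate 3 was the highest of its group for 5 of 7, against 31.9% of all genes (median 0.33, with −0.0024 over all genes). OsJAZ1-OE drought replicate 1 was above replicate 2 for 6 of 7 members, by a median log2 difference of 0.52, beside 0.0007 over all genes. In ZH11 drought, replicate 1 was above replicate 2 for 3 of 7 members (median −0.03), with differences from −1.58 for CYP76M8 to 0.42 for CYP76M7. Leaving out OsJAZ1-OE drought replicate 2 left a single drought library in that genotype. Fewer members were then called lower in OsJAZ1-OE, with OsCPS2 and CYP76M7 still called. Fewer genes of the whole series were called there as well, in either direction.

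**Figure D3:**
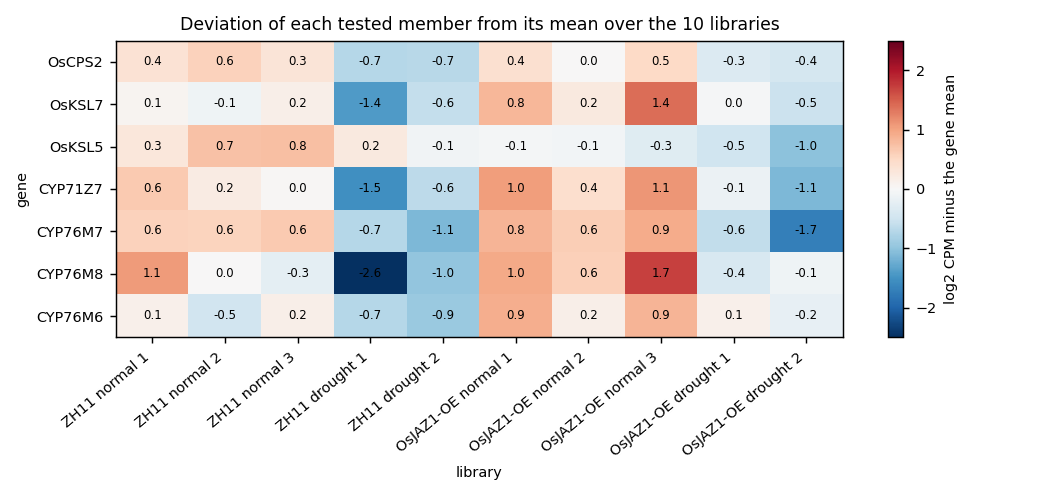
Deviation of log2 CPM from the gene's own mean over the 10 libraries, for the 7 tested members (rows) in each library (columns). Blue is below and red above that mean. Both ZH11 drought columns are blue for each gene but OsKSL5, whose values there are 0.25 and −0.09, and OsKSL5 is lower in the OsJAZ1-OE columns than in the ZH11 normal columns.

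The genotypes were compared within each condition. Under normal conditions 1 of the 7 tested members, OsKSL5, was called between OsJAZ1-OE and ZH11, where 3.83% of all genes tested were called in either direction. OsKSL5 was the lower in OsJAZ1-OE, its log2 value being −0.75 (standard error 0.17, adjusted p = 0.040, edgeR), with its 3 OsJAZ1-OE libraries (1.04 to 1.22 FPKM) all below the 3 ZH11 libraries (1.54 to 2.18 FPKM). That call ended without ZH11 normal replicate 2 (adjusted p = 0.087, edgeR) or 3 (0.16) and without OsJAZ1-OE normal replicate 1 (0.081), 2 (0.091) or 3 (0.17), as well as with limma-trend on log2(FPKM + 0.1) (0.13) or log2(FPKM + 1) (0.11), over alternatives from 0.0054 to 0.17. The log2 fold changes of the other 6 members did not pass, and OsCPS2 had −0.10 (standard error 0.11, adjusted p = 0.72, edgeR). OsKSL7 had 0.86 (standard error 0.28, adjusted p = 0.14, edgeR), with 1.14 to 2.46 FPKM in OsJAZ1-OE and 0.897 to 1.01 FPKM in ZH11, and it passed with no filter on low counts (0.86, adjusted p = 0.045, edgeR, over alternatives up to 0.48). CYP76M6 had 0.75 (standard error 0.28, adjusted p = 0.19, edgeR), CYP76M8 0.85 (adjusted p = 0.47), CYP71Z7 0.58 (adjusted p = 0.36) and CYP76M7 0.22 (adjusted p = 0.75).

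Under drought stress 0 of the 7 tested members were called between the genotypes by edgeR, where 3.68% of all genes were called. An unadjusted p under 0.05 was reached by 2 of the 7, and by 4651 of the 24850 genes tested. For OsKSL5 the log2 value was −0.84 (standard error 0.22, adjusted p = 0.069, edgeR) and was called by DESeq2 (adjusted p = 0.023) and by edgeR with no filter (0.027). CYP76M6 had 0.84 (standard error 0.37, adjusted p = 0.26, edgeR). OsCPS2, at 5.93 and 5.98 FPKM in ZH11 and 7.88 and 7.10 FPKM in OsJAZ1-OE, had 0.31 (standard error 0.15, adjusted p = 0.28, edgeR). A p-value that misses the threshold does not show that the genotypes are alike, and for CYP76M8 the standard error of the difference was 1.02 on the log2 scale.

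**Figure D4:**
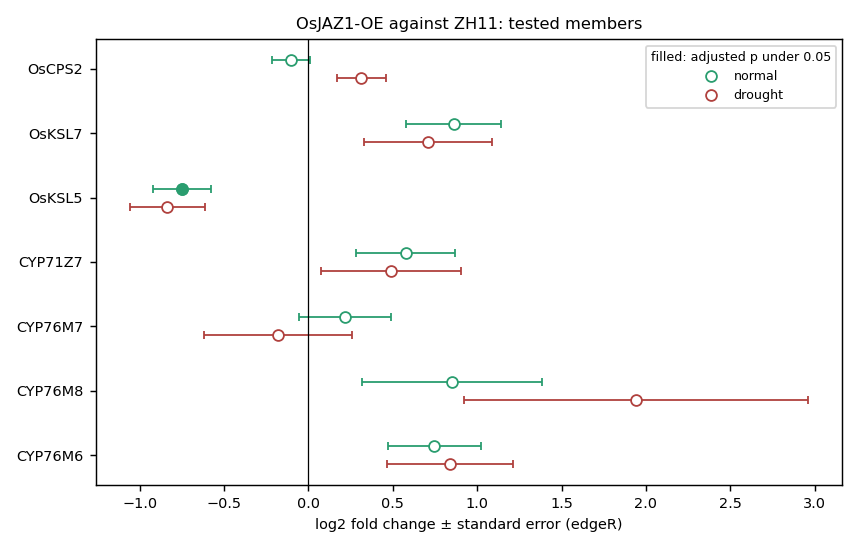
Log2 fold change of OsJAZ1-OE against ZH11 for the 7 tested members, under normal conditions and under drought. Whiskers are standard errors, and the filled point, OsKSL5 under normal conditions, is the one with an adjusted p under 0.05 in edgeR. OsKSL5 lies left of 0 in both conditions, at −0.75 and −0.84.

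Whether drought acted differently on the cluster in OsJAZ1-OE was tested as the difference of the responses. It called 0 of the 7 members and 0% of all genes tested by edgeR, of which 2097 had an unadjusted p under 0.05, and 104 genes by DESeq2, none of them a member. Of the members, OsCPS2 alone had an unadjusted p under 0.05, with a difference of 0.42 on the log2 scale (standard error 0.19, adjusted p = 0.58, edgeR), its fall being smaller in OsJAZ1-OE. The other differences ran from −0.40 for CYP76M7 (standard error 0.52) to 1.09 for CYP76M8 (standard error 1.16).

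Other loci of the same stretch set the members beside their neighbours. The cluster also holds CYP71Z6 (LOC_Os02g36150) and OsKSL6 (LOC_Os02g36264), an ent-isokaurene hydroxylase and the ent-isokaurene synthase, which are linked to oryzalides rather than phytocassanes. CYP71Z6 was at 17.0, 19.7 and 18.6 FPKM in ZH11 normal and at 16.3 and 18.5 FPKM in ZH11 drought. In OsJAZ1-OE it was at 16.6, 13.3 and 14.2 FPKM under normal conditions and at 17.3 and 15.1 FPKM under drought. Drought and normal libraries overlapped in both genotypes. Its log2 fold changes were −0.10 in ZH11 (standard error 0.11, adjusted p = 0.52, edgeR) and 0.14 in OsJAZ1-OE (standard error 0.11, adjusted p = 0.35, edgeR).

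OsKSL6 was at 2.57, 2.80 and 2.36 FPKM in ZH11 normal and at 1.23 and 0.907 FPKM in ZH11 drought. The OsJAZ1-OE libraries had 2.56, 1.92 and 2.68 FPKM under normal conditions and 1.06 and 0.951 FPKM under drought. The groups did not overlap in either genotype. Its log2 fold changes were −1.27 (standard error 0.18, adjusted p = 1.9e-04, edgeR) and −1.28 (standard error 0.18, adjusted p = 2.5e-04, edgeR).

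Between the members lay 16 MSU loci, these neighbours included. Of the 16, 10 were at 0 FPKM in all libraries, 14 stayed under 0.1 FPKM, and 3 were tested, among which OsKSL6 was the single call in either genotype. On the side before CYP76M5, 4 of 10 loci were tested, with 1 called lower (LOC_Os02g35970, log2 fold changes −1.07 and −0.62) and 1 called higher (LOC_Os02g35950, 0.32 and 0.42) in both genotypes. On the side after CYP76M6, 4 of 10 loci were tested, with none called lower and 1 called higher (LOC_Os02g36360, 0.32 and 0.39). The medians over the flanking loci tested were −0.24 and 0.13 before the cluster and 0.27 and 0.32 after it, in ZH11 and OsJAZ1-OE.

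**Figure D5:**
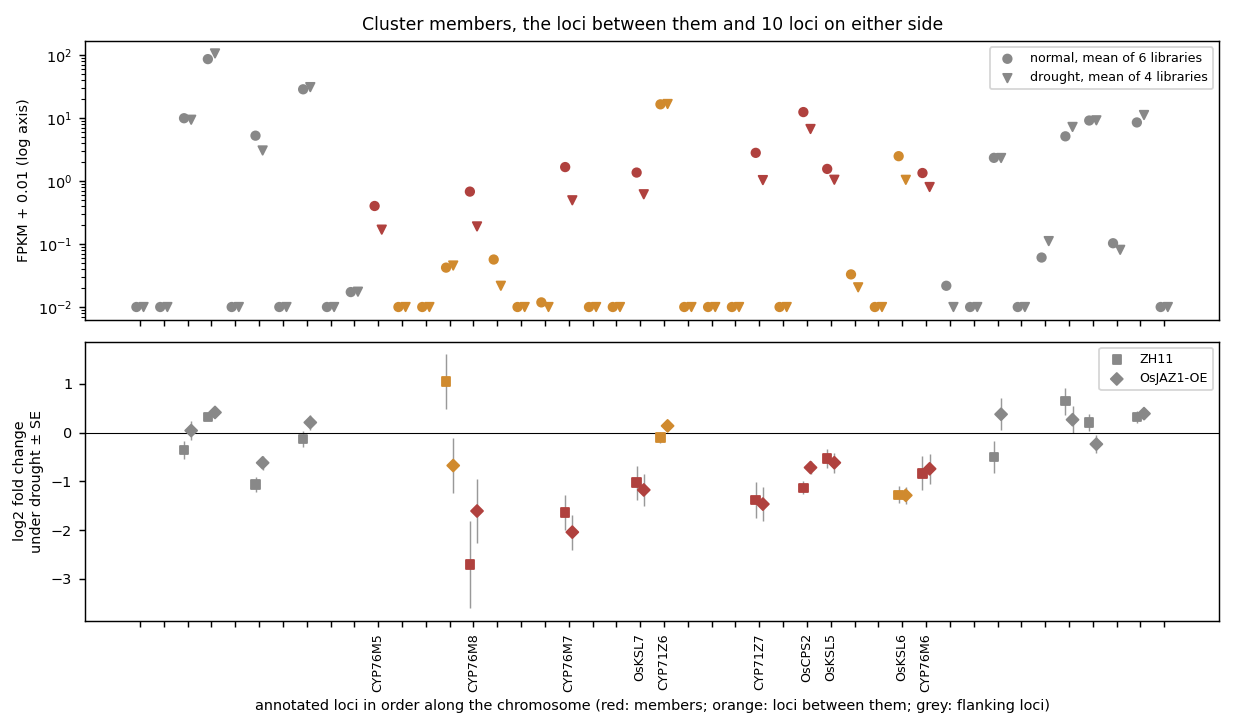
Annotated loci in order along chromosome 2, with 10 loci on each side of the cluster. The upper panel gives mean FPKM plus 0.01 on a log axis over the 6 normal and the 4 drought libraries, and the lower panel the log2 fold change under drought with its standard error for tested loci, in ZH11 and OsJAZ1-OE. Members (red) and OsKSL6 lie below 0 in the lower panel, while CYP71Z6 and most flanking loci lie near or above it.

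Other lists are read against the shares of all tested genes that edgeR called under drought, which were 22.8% lower and 21.6% higher in ZH11, and 20.0% lower and 19.1% higher in OsJAZ1-OE. Genes of the precursor supply moved in both directions. Of 9 genes for the plastid methylerythritol phosphate pathway and geranylgeranyl diphosphate synthase, 4 fell and 1 rose in each genotype, with medians of −0.15 in ZH11 and −0.14 in OsJAZ1-OE, beside medians within 0.01 of 0 over all genes. The gene that rose was OsDXS1 (LOC_Os05g33840), a 1-deoxyxylulose 5-phosphate synthase gene of green tissue, with 44.1 ± 3.59 FPKM (SD, n = 3) under normal conditions and 75.7 ± 0.350 (SD, n = 2) under drought in ZH11, and 43.1 ± 3.74 and 77.2 ± 13.9 in OsJAZ1-OE. Its log2 fold changes were 0.71 and 0.79 (adjusted p = 1.0e-04 and 7.0e-05, edgeR). The paralog OsDXS3 (LOC_Os07g09190), known to respond to elicitors, fell, with 4.40 ± 0.370 FPKM against 1.94 ± 0.0698 in ZH11 and 3.77 ± 0.451 FPKM against 2.05 ± 0.708 in OsJAZ1-OE. Its log2 fold changes were −1.22 and −0.94 (adjusted p = 3.1e-04 and 0.0021, edgeR). OsMCS (LOC_Os02g45660), the most expressed gene of the list that did not pass in the average of the genotypes, was at 62.6 to 73.2 FPKM as a group mean, with −0.23 in ZH11 (adjusted p = 0.030, edgeR) and 0.07 in OsJAZ1-OE (adjusted p = 0.47, edgeR).

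Genes of other diterpenoid routes also moved down. Of 9 genes for momilactones and other diterpenoid phytoalexins, 6 fell in ZH11 and 8 in OsJAZ1-OE with none higher, at medians of −1.44 and −1.45. OsMAS (LOC_Os04g10010), for momilactone A synthase, had log2 fold changes of −2.51 (adjusted p = 7.7e-05, edgeR) and −1.26 (adjusted p = 0.0029, edgeR). CYP99A2 (LOC_Os04g10160), a P450 of the momilactone cluster on chromosome 4, had −1.77 and −1.66 (adjusted p = 5.1e-04 and 6.8e-04, edgeR). CYP99A3, of the same cluster, had −0.44 and −0.43 and did not pass. Of 3 tested gibberellin genes, 2 fell in ZH11 and 3 in OsJAZ1-OE. OsCPS1 (LOC_Os02g17780), the gibberellin counterpart of OsCPS2, was at 1.87 ± 0.122 FPKM in ZH11 normal and 0.553 ± 0.0768 in ZH11 drought, and at 1.68 ± 0.319 and 0.410 ± 0.0449 FPKM in OsJAZ1-OE. Its log2 fold changes were −1.73 (adjusted p = 3.6e-05, edgeR) and −2.01 (adjusted p = 2.3e-05, edgeR). OsKAO (LOC_Os06g02019), for ent-kaurenoic acid oxidase, had −0.82 and −1.24 (adjusted p = 0.0081 and 0.0010, edgeR).

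The 9 genes for regulators linked to diterpenoid phytoalexins moved both ways. In ZH11 4 of the 9 were called lower and 3 higher, and in OsJAZ1-OE 3 lower and 2 higher, at medians of −0.31 and −0.53, where 22.8% and 20.0% of all genes were called lower and 21.6% and 19.1% higher. OsWRKY62 (LOC_Os09g25070) went from 17.1 ± 3.61 to 3.96 ± 0.256 FPKM in ZH11 (log2 fold change −2.15, adjusted p = 2.7e-04, edgeR) and from 16.1 ± 6.21 to 7.04 ± 0.645 FPKM in OsJAZ1-OE (−1.23, adjusted p = 0.0070, edgeR). OsWRKY45 (LOC_Os05g25770), a WRKY factor of salicylate-linked defence, had −1.38 (adjusted p = 6.2e-04, edgeR) and −0.98 (adjusted p = 0.0054, edgeR). Called higher in both genotypes were OsWRKY10 (1.59 and 1.77, adjusted p = 0.0055 and 0.0027, edgeR) and OsTGAP1 (0.18 and 0.25, adjusted p = 0.037 and 0.0093, edgeR). OsWRKY53 was called higher in ZH11 alone (1.02, adjusted p = 0.030, edgeR). Its ZH11 drought libraries, at 107 and 322 FPKM, overlapped the ZH11 normal range of 89.8 to 112 FPKM. OsMYC2 (LOC_Os10g42430), the bHLH activator that JAZ proteins repress, was at 34.4 to 46.0 FPKM as a group mean and did not pass (0.21 and 0.12). Among 4 tested genes for pathogenesis-related proteins, 1 fell in ZH11, the PR10 gene LOC_Os12g36850 (−0.59, adjusted p = 0.046, edgeR), a share near the 22.8% of all genes called lower, and in OsJAZ1-OE none of the 4 had even an unadjusted p under 0.05 in edgeR. The PR10 gene LOC_Os12g36830 had 0.24 and 0.31, and PBZ1 (LOC_Os12g36880), the most expressed of them, −0.11 and −0.0017, none past the threshold.

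Outside the cluster, the genes most like its tested members over the 10 libraries were found by Pearson's r with the mean of the members' standardized log2 CPM, among 24843 genes. CYP99A2 came first (r = 0.99), and OsCPS4 (LOC_Os04g09900), for the syn-copalyl diphosphate synthase of the momilactone cluster, was also among the first 5 (r = 0.98). The other 3 of the first 5, LOC_Os04g51040, LOC_Os02g50330 and LOC_Os04g52640, had r of 0.99, 0.98 and 0.98 and have no name in the sources used here. OsKSL6 was at r = 0.91 and CYP71Z6 at −0.09. All libraries share the drought contrast, and these values are descriptions across 10 libraries with no test.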

How the data were processed

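Shoot RNA of 10 libraries was sequenced by the authors as paired reads and processed on the BMKCloud platform. The deposited expected counts are estimated fragments per transcript, and the deposited FPKM values are scaled by transcript length and mapped fragments. The labels name TopHat2, Picard, SAMtools 0.1.18 and GATK without roles. Quantifier, build and strandedness: not given in the sources used here. In each genotype drought replicate 3, set aside by the authors for low correlation, was not analysed here. Values were summed per gene over transcripts, and counts were rounded. Within a library 89.7 to 90.9% of gene sums up to 1000 were whole multiples, within 0.01, of a step of 0.884 to 1.19. Dividing by it gave the fragments printed.

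Genes passing filterByExpr (24850) were fitted with TMM normalization in edgeR 4.0.16 under R 4.3.3, each group having its own mean and all libraries sharing the spread. P-values were adjusted by Benjamini-Hochberg, and calls need an adjusted p under 0.05. The fit was tested on simulated data. Alternatives were DESeq2 1.42.0, limma-trend (limma 3.58.1) on log2(FPKM + 0.1) or log2(FPKM + 1), RLE factors, no filter, at least 50 counts, only the groups compared, a replicate block, step-divided counts, a fold limit of 1 on the log2 scale, and each library left out. Named were all members, both neighbours, called loci nearby, and the 5 genes most like the members. Per list, the 2 genes with the lowest adjusted p in the average drought response and the most expressed that did not pass were named. Regulators called higher were named as well. Of 57 listed names, 35 were found on the same chromosome of the RefSeq table. Members and lists were chosen with earlier results of these data known.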

Additional observations from a re-analysis of the deposited data

How the results depend on the processing

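CYP76M7 kept its calls under drought in both genotypes wherever it was tested, and so did OsCPS2 except in OsJAZ1-OE with the fold limit. The count of members called under drought in ZH11 (6) was 3 with log2(FPKM + 1), and 4 to 7 with single libraries left out. In OsJAZ1-OE (5) it was 3 with the fold limit and 2 to 6 with single libraries left out. Between genotypes under normal conditions the count (1) was 0 with log2(FPKM + 0.1), with log2(FPKM + 1) and with the fold limit, 2 with no filter, and 0 to 1 with single libraries left out. Under drought (0) it was 1 with DESeq2 and 1 with no filter.

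With the replicate number as a replicate block the counts were 3 in ZH11 and 0 between genotypes under normal conditions. The block ended the drought calls of OsKSL7 (adjusted p = 0.059, edgeR), OsKSL5 (0.073) and CYP76M8 (0.056) in ZH11 and of OsKSL5 in OsJAZ1-OE (0.057), and the genotype call of OsKSL5 under normal conditions (0.054). Over 13 same-numbered pairs of libraries, deviations from group means correlated at −0.10 to 0.24 (median 0.086, 6 over 0.1), and over 24 other pairs at −0.24 to 0.22 (median −0.071, 3 over 0.1). The labels give the numbers no meaning, and not every same-numbered pair was over 0.1, so the numbers were not taken as a pairing.

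Uncalled values changed sign. With log2(FPKM + 1) the difference of the responses was 0.019 for OsKSL5, −0.061 for CYP76M8 and −0.056 for CYP76M6. With single libraries left out it ran from −0.51 to 0.33 for OsKSL7, −0.37 to 0.15 for OsKSL5, −1.19 to 0.11 for CYP76M7, −0.12 to 0.28 for CYP76M6 and −0.68 to 0.45 for CYP71Z7. OsJAZ1-OE against ZH11 ran from −0.20 to 0.027 for OsCPS2 under normal conditions, and under drought from −0.98 to 0.33 for CYP76M7 and −0.10 to 1.03 for CYP71Z7. Depth limits CYP76M5 and CYP76M8.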
